A study of Homo sapiens with 24 samples.

Results

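TC71 and RDES are human Ewing sarcoma cell lines, and the comparison described here asked at which genes a day of exposure to pladienolide B (PlaB) moved the RNA of one line differently from that of the other. The quantity is the TC71 response, PlaB minus vehicle, minus the RDES response. It is called the difference of responses below, and a positive value means that the TC71 response was the higher one. The members are 12 of the 24 arrays of the series, 4 of its 8 groups of 3. They are TC71 with 5 nM PlaB for 24 h, TC71 with 0.1% DMSO vehicle for 24 h, and RDES with the same pair of treatments. The other arrays, of the lines SKNMC and TC32, entered the model as part of the shared estimate of spread. The sample descriptions name DMSO vehicle for the controls, whereas the treatment protocol speaks of untreated cells. The labels do not state that samples 1 to 3 of a group were grown as separate cultures, so p-values describe the spread among these samples, which may be technical.

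Ewing sarcoma is a tumour of bone and soft tissue that usually carries a fusion of EWSR1 with FLI1, a transcription factor that switches on some genes and silences others. PlaB binds the SF3b complex, the part of the U2 snRNP that recognises the intron branch point, and so blocks an early step of spliceosome assembly. Cells exposed to SF3b inhibitors are known to retain introns, to skip exons and to change their progress through the cell cycle. A beadchip probe reads one stretch of a transcript, so a value below is the RNA that holds that stretch and does not tell isoforms apart. In these bulk samples fewer cells of a type and less RNA per cell cannot be told apart.

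The 12 arrays detected between 15785 and 18736 of 47323 probes (detection p under 0.05), and arrays of one group correlated at 0.990 to 0.994 across tested probes. PlaB arrays detected fewer probes than vehicle arrays, by -1328.3 on average in TC71 and -1323.7 in RDES. The difference between the lines was -4.67 probes (exact two-sided permutation test within lines, p = 1 over 400 regroupings, smallest possible p 0.005). Of 10 Ewing sarcoma markers on the chip, 8 were detected on all 12 arrays, among them CD99, NKX2-2 and CCND1. The FLI1 probe was detected on 1 of 12 arrays and LIPI on 5 of 12. Each marker was read at its brightest probe. So read, no epithelial marker of 13 and no endothelial marker of 9 was detected on all 12 arrays. Of 11 blood-cell markers 2 were (CD79A and CD68). A dimmer KRT18 probe, of the epithelial list, was detected on all 12 arrays. The summed background-corrected intensity of the epithelial list went from 56.3 to 60.0 in TC71 vehicle arrays to 46.3 to 51.8 with PlaB, and in RDES from 43.8 to 51.0 to 71.1 to 74.6. Within it, KRT18 averaged 4.99 log2 with vehicle and 5.80 with PlaB in RDES, and KRT8 averaged 4.28 and 4.20. The KRT18 difference of responses was called at both of its probes (-1.04 and -0.78, limma adjusted p = 7.6e-04 and 0.0074). The blood-cell list went from 78.0 to 93.3 up to 104 to 122 in TC71 and from 63.5 to 82.0 up to 109 to 119 in RDES. The endothelial list went from 27.0 to 29.4 up to 45.6 to 51.3 in TC71 and from 21.03 to 40.6 up to 43.0 to 60.7 in RDES. Within it, ESAM averaged 4.28 log2 with vehicle and 5.55 with PlaB in TC71, and 4.31 and 5.57 in RDES. Others fell, CLDN5 from 4.65 to 4.20 in TC71 and EMCN from 4.45 to 4.21 in RDES. The Ewing sarcoma markers summed to 6384 to 6534 in TC71 vehicle arrays and to 3703 to 3964 with PlaB, and in RDES to 6417 to 7166 and to 5120 to 5460. The part of other cell types in the results was not tested.

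Of 17557 tested probes, 1855 had a called difference of responses (10.6% of probes; limma, adjusted p under 0.05), 851 with the higher response in TC71 (4.85%) and 1004 with the higher response in RDES (5.72%). The upward share of calls was 45.9%, and 28.8% when arrays were centred on their median instead of quantile-normalised. Read at one probe for each of 10882 genes, 1328 genes were called, which is 12.2% of genes. Of these, 589 were upward (5.41%) and 739 downward (6.79%), and 178 differed by at least 2-fold, 61 upward and 117 downward. Each line responded widely by itself, with 7666 probes called in TC71 (43.7%) and 6968 in RDES (39.7%). Of genes, 5241 were called in TC71 (48.2%), 22.9% of all genes upward and 25.3% downward, and 4777 in RDES (43.9%), 21.4% upward and 22.5% downward.

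The responses of the lines correlated across genes, which are not independent replicates. Over all tested probes, Pearson r was 0.75 and Spearman rho 0.70. Among 7148 genes detected on all 12 arrays, Pearson r was 0.80 and Spearman rho 0.79. For these 7148 genes the SD of the responses was 0.60 log2 in TC71 and 0.55 log2 in RDES. A difference that was not called does not show that the responses were alike. Of 3348 genes called in both lines, 3262 moved the same way and 86 moved in opposite directions. Among the 1328 genes with a called difference, 548 were called in TC71 alone, 366 in RDES alone and 86 in opposite directions. A further 228 moved the same way with the larger change in TC71, 89 the same way with the larger change in RDES, and 11 were called in neither line. A gene called in one line alone counts here only because the difference itself passed the test. Of the 548 genes, 321 were detected on all 12 arrays, and of the 366 genes, 224. Among all called genes, 64 were detected on no TC71 array and 59 on no RDES array, so that line's side is background.

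**Figure D1:**
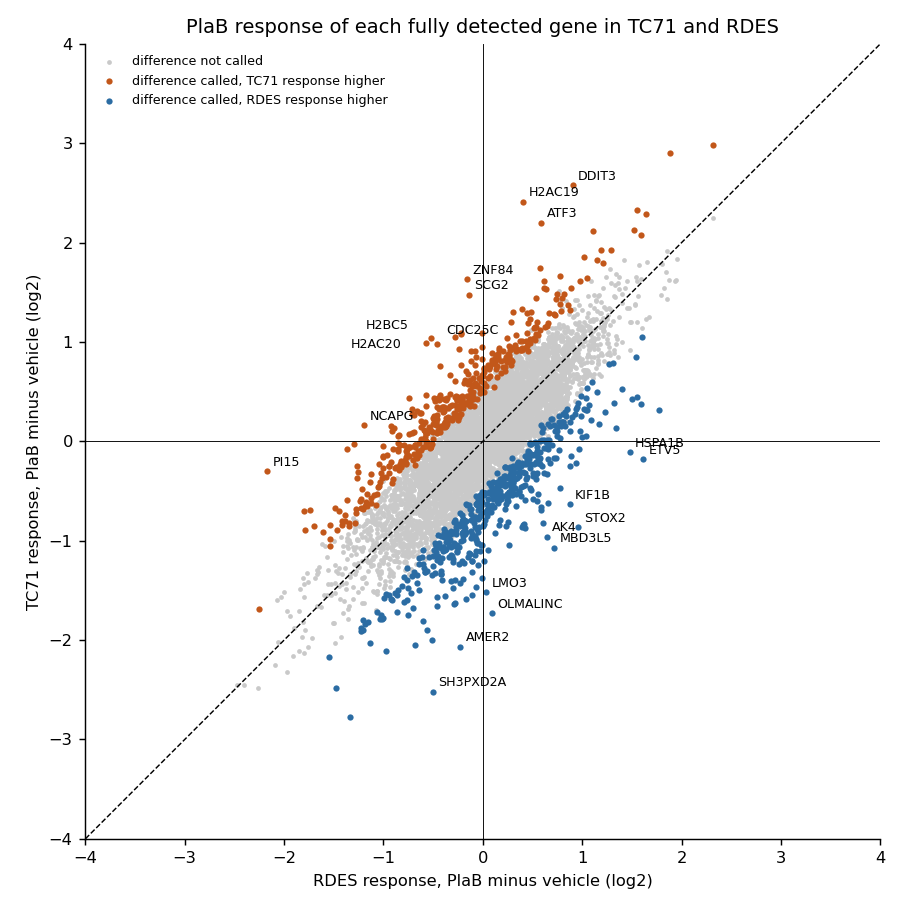
PlaB response of each gene detected on all 12 arrays in RDES (horizontal axis, log2) and TC71 (vertical axis, log2), with genes of a called difference in colour and 20 of the largest named. Points lie along the dashed line of equal response (Pearson r 0.80), with H2AC19 2.00 log2 above it and SH3PXD2A 2.02 log2 below it.

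The target of the drug was read first. SF3B1, the large scaffold protein of SF3b, stood at 8.96, 9.16 and 9.21 log2 on the TC71 vehicle arrays and at 10.07, 10.04 and 9.87 with PlaB. In RDES it stood at 8.47, 8.87 and 8.61 with vehicle and at 9.29, 9.40 and 9.23 with PlaB. Treatments did not overlap in either line, which held for 56.5% of genes in TC71 and 51.9% in RDES, and SF3B1 rose by 0.88 in TC71 and 0.66 in RDES. The difference of 0.22 ± 0.16 log2 (SE) did not pass (limma adjusted p = 0.43, 95% interval -0.11 to 0.55), whereas a dimmer SF3B1 probe gave 0.82 and was called (adjusted p = 0.0037). PHF5A, which forms the PlaB pocket together with SF3B1, had a difference of 0.36 ± 0.14 that did not pass (adjusted p = 0.11). It passed without background correction and with an offset of 50.

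Among 25 measured SF3a/SF3b and U2 snRNP-associated factors, limma called 0 differences, while 4 had an unadjusted p under 0.05, and the list's median difference was 0.03 beside -0.0048 over all genes. In each line 12 of the 25 rose, beside 22.9% of all genes in TC71 and 21.4% in RDES. SF3B4 rose by 1.08 in TC71 and 1.00 in RDES. Of 37 SR proteins and hnRNPs, which steer splice site choice, 2 were called upward (SRSF1 and HNRNPUL1) and 0 downward. That is 5.41% beside 12.2% of all genes, and 11 had an unadjusted limma p under 0.05. The upward count was 0 under median centring, without TC71 vehicle replicate 1, without RDES vehicle replicate 2 or without RDES PlaB replicate 3, and 1 without any of 5 other single arrays. Other HNRNPUL1 probes gave differences of 0.05 and 0.02 that did not pass. HNRNPH1, an hnRNP implicated in processing of the fusion transcript in some Ewing tumours, fell by 0.42 in TC71 and by 0.87 in RDES. Its difference of 0.45 ± 0.15 was at the threshold (adjusted p = 0.051), and a dimmer probe gave 0.99 (adjusted p = 0.0105). At the brighter HNRNPH1 probe the difference passed in 5 of the processing settings and single-array omissions run. SRPK1, a kinase of SR proteins, fell in both lines, by 0.82 in TC71 and 0.29 in RDES (difference -0.53, adjusted p = 0.012).

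Of 42 measured G2/M and mitosis genes, 16 had a called difference, all 16 upward, and 26 did not pass, or 38.1% called beside 12.2% of all genes. In TC71 16 members rose and 9 fell, beside 22.9% and 25.3% of all genes. In RDES 6 rose and 23 fell, beside 21.4% and 22.5% of all genes. The list's median response was 0.04 log2 in TC71 and -0.41 in RDES, and its median difference was 0.33. The upward count was 10 under median centring.

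CDC25C, the phosphatase that activates CDK1 at mitotic entry, stood at 5.79, 6.23 and 5.92 log2 on the TC71 vehicle arrays and at 7.10, 6.90 and 6.88 with PlaB. In RDES it stood at 5.64, 5.98 and 5.56 with vehicle and at 5.42, 5.27 and 5.11 with PlaB. The vehicle arrays of the lines overlapped, all TC71 arrays were higher with PlaB and all RDES arrays lower. The difference was 1.44 ± 0.18 log2 (adjusted p = 1.6e-06). Of its 2 other probes, one gave 1.24 and was called and the other, which fell by 0.89 in TC71 and by 1.03 in RDES, gave 0.14 and did not pass.

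TPX2, which activates Aurora A on the spindle, stood at 8.06, 8.37 and 8.35 log2 with vehicle and 8.67, 8.77 and 8.66 with PlaB in TC71. In RDES the values were 8.47, 8.43 and 8.33 with vehicle and 7.96, 7.90 and 8.01 with PlaB. Its treatments did not overlap in either line, and the difference was 0.89 ± 0.14 (adjusted p = 8.7e-05). MASTL, the Greatwall kinase that restrains the phosphatase opposing CDK1, rose by 0.46 in TC71 and fell by 0.57 in RDES (difference 1.04 ± 0.15, adjusted p = 1.5e-05). CENPA, the centromeric histone H3, rose by 0.34 in TC71 and fell by 0.46 in RDES.

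The chromosomal passenger complex, which corrects faulty kinetochore attachments, was represented by 3 of the called genes. AURKB, its kinase, stood at 8.19, 8.31 and 8.33 with vehicle and 8.10, 8.16 and 8.17 with PlaB in TC71, where it was not called. In RDES it fell from 8.01, 7.75 and 7.82 to 6.83, 7.03 and 6.84, a fall of 0.96. The borealin gene CDCA8 rose by 0.77 in TC71 (-0.22 in RDES, not called), and the survivin gene BIRC5 rose by 0.81 (-0.12 in RDES, not called). A second BIRC5 probe gave a difference of 0.34 that did not pass. NCAPG, a condensin subunit, fell in RDES from 7.86, 7.92 and 7.88 to 6.42, 6.75 and 6.90. In TC71 its values were 8.08, 8.0 and 8.06 with vehicle and 8.16, 8.13 and 8.34 with PlaB, which was not called.

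The other called members were the spindle genes DLGAP5 (difference 0.86), KIF4A (0.68) and NUSAP1 (0.47), the checkpoint kinase TTK (0.74), the mitotic kinase PLK1 (0.67) and the mitotic entry gene CDCA3 (0.73, detected on 1 of 3 RDES PlaB arrays). They also included separase, ESPL1 (0.64), securin, PTTG1 (0.49), and FOXM1, the transcription factor that drives many G2/M genes (0.54). PTTG1 rose in both lines, by 0.77 in TC71 and 0.29 in RDES. AURKA, the kinase that TPX2 activates, fell by 0.90 in TC71 and 0.43 in RDES, a difference in the other direction (-0.47) that did not pass. HMMR, a spindle-associated hyaluronan receptor, fell by 1.06 in TC71 and 1.41 in RDES, a difference of 0.36 that did not pass either.

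DNA replication genes mostly fell in both lines. Of 46 measured, 34 fell in TC71 and 31 in RDES, beside 25.3% and 22.5% of all genes. The difference was called upward for 3 and downward for 3, or 13% beside 12.2% of all genes. ORC1, a subunit of the origin recognition complex, rose by 0.97 in TC71 and stood at 0.33 in RDES (difference 0.65). ORC2 of the same complex fell by 0.45 in TC71 and stood at 0.22 in RDES (difference -0.67, adjusted p = 0.0092). The upward count was 0 under median centring. It was 1 without replicate 3 of any of the 4 groups, and the downward count was 1 without TC71 vehicle replicate 3, TC71 PlaB replicate 1 or RDES vehicle replicate 1.

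Of 25 measured replication-dependent histone genes, which cells express mainly in S phase, 9 had a called upward difference and 0 a downward one, or 36% beside 12.2% of all genes, with a median difference of 0.43 log2. The median was 0.17 with no background correction and 0.18 with an offset of 50. In TC71 13 rose and 2 fell, beside 22.9% and 25.3% of all genes. In RDES 2 rose and 5 fell, beside 21.4% and 22.5% of all genes. Only 8 of the 25 were detected on all 12 arrays. The labelling kit primes cRNA from poly(A) tails, and which form of these mostly tail-less mRNAs the probes read was not tested.

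H2AC20, which encodes a histone H2A, stood at 5.87, 5.87 and 5.97 log2 with vehicle and 6.97, 6.75 and 6.97 with PlaB in TC71. In RDES it stood at 5.37, 5.21 and 5.42 with vehicle and 4.71, 4.72 and 4.87 with PlaB. No arrays overlapped, and the lines moved in opposite directions (difference 1.56 ± 0.14, adjusted p = 8.7e-09). H2BC5, a histone H2B gene, rose in TC71 from 7.28, 7.05 and 7.39 to 8.39, 8.28 and 8.17. In RDES it fell from 6.21, 6.05 and 6.29 to 5.80, 5.64 and 5.55 (difference 1.56 ± 0.20). H2AC19 had the largest positive difference among genes detected on all 12 arrays, 2.00 ± 0.19, with a rise of 2.41 in TC71 and 0.41 in RDES. Its near-identical copy H2AC18, detected on 3 of 6 RDES arrays, gave 1.94, and their probes may read each other's RNA. H2BC12 (0.96), H2BC11 (0.81), H2AC6 (0.79), H4C8 (0.71) and H3C10 (0.57) were also called. Of these, H2BC11, H2AC6, H4C8 and H3C10 were each detected on at most 4 of 6 RDES arrays, so their RDES values lay at or near background.

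Promoters of 5 of these G2/M and histone genes are shown because they were among the 10 largest upward differences of fully detected genes, although their responses within each line were not alike. Each line gives 250 bases before and 50 bases after a RefSeq transcription start (GRCh38.p14), read 5′ to 3′ on the gene's strand. Capitals mark matches, on either strand, to the cell cycle homology region TTTGAA, the CCAAT box CCAAT, the heat shock element GAANNTTC, the sterol element TCACNCCAC or the CHOP and ATF4 element TGATGNAA. CDC25C has 4 starts in that table, and the one shown is chr5:138331755-138332054 (minus strand). NCAPG is chr4:17810729-17811028, H2AC19 is chr1:149850811-149851110, H2AC20 is chr1:149886668-149886967 and H2BC5 is chr6:26157871-26158170, all on the plus strand.
CDC25C: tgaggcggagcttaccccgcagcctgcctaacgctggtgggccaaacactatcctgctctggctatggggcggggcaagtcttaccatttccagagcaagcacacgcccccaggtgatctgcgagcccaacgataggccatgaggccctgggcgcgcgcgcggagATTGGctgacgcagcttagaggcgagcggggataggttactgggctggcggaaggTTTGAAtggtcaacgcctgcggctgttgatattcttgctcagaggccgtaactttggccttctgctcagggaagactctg
NCAPG: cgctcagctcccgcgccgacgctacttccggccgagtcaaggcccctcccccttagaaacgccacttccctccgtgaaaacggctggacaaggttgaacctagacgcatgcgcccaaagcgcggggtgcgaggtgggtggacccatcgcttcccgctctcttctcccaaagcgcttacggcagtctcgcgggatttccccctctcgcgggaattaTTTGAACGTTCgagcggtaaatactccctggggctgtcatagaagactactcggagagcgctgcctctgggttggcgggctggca
H2AC19: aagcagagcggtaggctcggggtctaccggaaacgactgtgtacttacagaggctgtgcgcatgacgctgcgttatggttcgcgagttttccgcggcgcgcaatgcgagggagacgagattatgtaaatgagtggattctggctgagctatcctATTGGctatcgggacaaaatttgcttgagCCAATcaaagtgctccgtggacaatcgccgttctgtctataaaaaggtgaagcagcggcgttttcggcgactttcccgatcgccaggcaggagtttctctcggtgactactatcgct
H2AC20: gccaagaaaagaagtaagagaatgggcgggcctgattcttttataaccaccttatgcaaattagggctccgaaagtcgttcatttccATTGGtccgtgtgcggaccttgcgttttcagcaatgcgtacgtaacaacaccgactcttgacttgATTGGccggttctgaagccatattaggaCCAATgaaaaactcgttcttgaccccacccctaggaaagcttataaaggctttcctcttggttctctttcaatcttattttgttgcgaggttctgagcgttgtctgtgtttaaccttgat
H2BC5: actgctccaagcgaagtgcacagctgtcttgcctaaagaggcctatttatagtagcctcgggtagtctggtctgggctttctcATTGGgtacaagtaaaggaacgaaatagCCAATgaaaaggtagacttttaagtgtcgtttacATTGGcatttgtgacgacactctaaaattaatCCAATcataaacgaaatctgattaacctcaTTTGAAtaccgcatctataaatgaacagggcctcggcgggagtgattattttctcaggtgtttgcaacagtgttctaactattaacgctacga

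In the window shown, TTTGAA began at -30 from the CDC25C start, at -35 from that of NCAPG and at -43 from that of H2BC5. In NCAPG it overlapped the heat shock element match that began at -32. TTTGAA was present in 27 of the 45 promoters of G2/M genes in the table and in 7 of 25 promoters of histone genes. By gene, any promoter counting, it was present in 25 of 35 G2/M genes and in 6 of 23 histone genes. It was present in 15.2% of all 35097 promoters of that length. CCAAT was present in 34 of the 45 G2/M promoters, in 21 of the 25 histone promoters and in 34.6% of all promoters. By gene it was present in 29 of the 35 G2/M genes and in 19 of the 23 histone genes. None of the 5 windows shown held the sterol or the CHOP and ATF4 element. Of the 3 other CDC25C windows, 2 held the CHOP and ATF4 element, beginning at -185 and -199, and neither TTTGAA nor CCAAT. In the remaining CDC25C window TTTGAA began at 43, after the start, and CCAAT matches began at -200, -217 and -12. Some genes have more than 1 promoter in the table, and a match describes letters only.

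**Figure D2:**
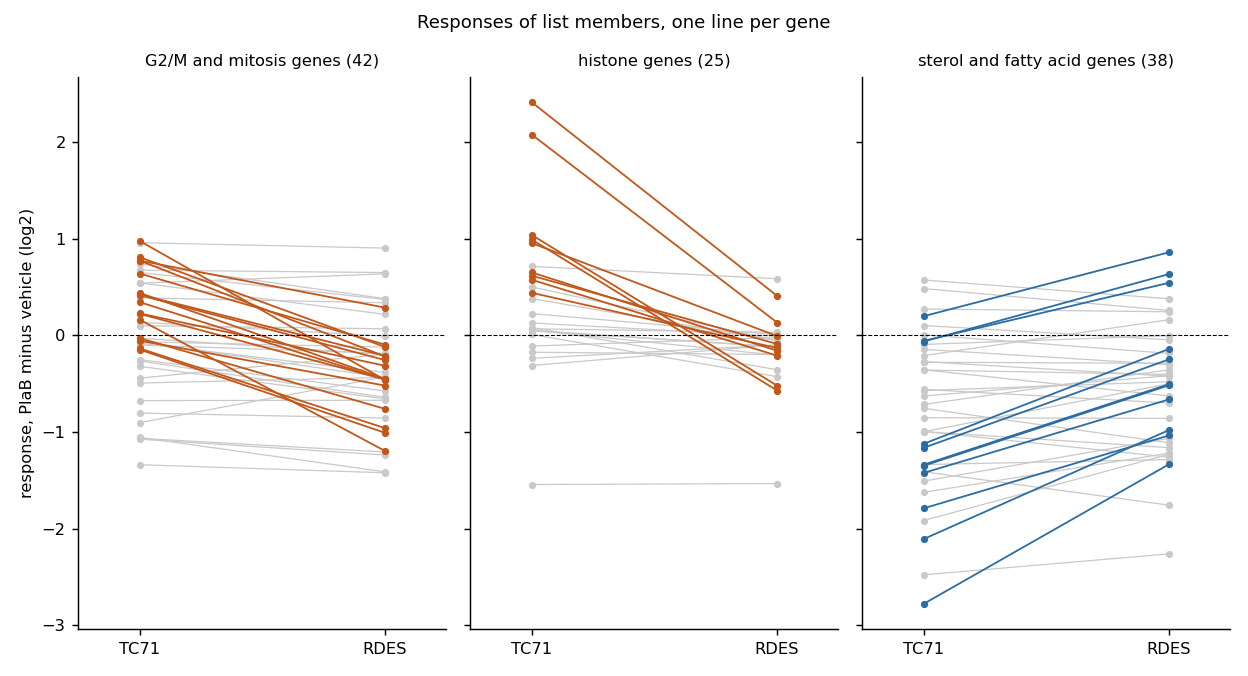
Response of each measured gene (log2, PlaB minus vehicle) in TC71 and in RDES, joined by a line, for 42 G2/M and mitosis genes, 25 histone genes and 38 sterol and fatty acid genes. Orange lines are called differences with the higher response in TC71 (16 and 9 in the first panels), blue lines those with the higher response in RDES (11 in the third) and grey lines were not called.

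CDKN1A, the p21 inhibitor of cyclin-dependent kinases and a p53 target, moved in opposite directions. In TC71 it rose from 5.64, 5.46 and 5.62 log2 to 6.05, 6.04 and 5.96, and in RDES it fell from 5.22, 5.14 and 5.55 to 4.63, 4.60 and 4.45. Treatments did not overlap in either line, and the difference was 1.18 ± 0.17 (adjusted p = 1.6e-05). Of 20 measured p53 targets, 3 were called upward and 2 downward, or 25% beside 12.2% of all genes, and the upward count was 1 under median centring. The median difference was 0.15, and it was 0.07 with no background correction or without RDES PlaB replicate 3 and 0.08 without TC71 vehicle replicate 3. GADD45A, a growth arrest gene, rose by 1.20 in TC71 and 0.46 in RDES. XPC, a DNA repair factor, had a difference of 0.80 whose call ended under median centring. TP53I3 (-0.85) and PHLDA3 (-0.80) fell further in TC71, and each was detected on part of the arrays of a PlaB group. TP53I3 fell by 1.39 in TC71 and 0.54 in RDES, and its other probe gave a difference of -0.275 that did not pass. PHLDA3 fell by 0.90 in TC71 and stood at -0.10 in RDES, where it was not called.

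A pair of stress transcription factors rose further in TC71. DDIT3, which encodes CHOP, the factor that ATF4 induces under prolonged stress, rose in TC71 from 5.94, 6.10 and 5.91 log2 to 8.64, 8.47 and 8.58. In RDES it rose from 6.34, 6.61 and 6.58 to 7.49, 7.46 and 7.29. TC71 arrays were the lower with vehicle and the higher with PlaB, and the difference was 1.68 ± 0.14 (adjusted p = 3.4e-09), with 5.98-fold and 1.87-fold rises. ATF3, another factor of this response, rose in TC71 from 4.68, 4.57 and 4.64 to 6.87, 6.89 and 6.74. In RDES it rose from 5.34, 5.40 and 4.92 to 5.80, 5.85 and 5.76 (difference 1.62 ± 0.16, adjusted p = 5.7e-08).

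Of 39 measured ATF4 and CHOP stress genes, 7 were called upward and 0 downward, or 17.9% beside 12.2% of all genes, and 4 were called upward under median centring. The amino acid transporter subunit SLC3A2 rose by 1.29 in TC71 and 0.66 in RDES (difference 0.63, adjusted p = 0.0091). PHGDH, the first enzyme of serine synthesis, fell in both lines, by 0.74 in TC71 and 1.39 in RDES. The asparagine synthetase gene ASNS had a difference of 0.48, with responses of 0.24 and -0.24, each not called. The tRNA synthetase gene EPRS1 fell by 0.29 in TC71 and 0.84 in RDES, and NUPR1, a stress-induced cofactor, had a difference of 0.54. Of 20 ER chaperones and unfolded-protein sensors 1 was called, or 5% beside 12.2% of all genes. It was the sensor ATF6 (0.60, limma adjusted p = 0.010), whose call ended under median centring.

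Immediate-early genes, which growth and stress signals induce without new protein synthesis, gave 6 upward calls and 0 downward among 25 measured. That is 24% beside 12.2% of all genes. The median difference was 0.26, and it was 0.10 with no background correction. EGR1, a zinc finger factor, rose in TC71 from 4.58, 4.42 and 4.70 log2 to 5.70, 5.69 and 5.55. In RDES its arrays overlapped at 5.37, 4.98 and 5.39 with vehicle and 4.90, 5.23 and 4.95 with PlaB (difference 1.30 ± 0.18, adjusted p = 9.3e-06). CCN1, a matricellular protein gene, rose in TC71 from 6.54, 6.43 and 6.64 to 7.71, 7.57 and 7.60 and stood at -0.22 in RDES, where it was not called. Its vehicle level in RDES was far higher, at 9.19, 9.26 and 9.10. JUN, a subunit of AP-1, rose by 1.45 in TC71 and 0.53 in RDES, and KLF6 and IER3 rose in TC71 (0.42 and 0.33) and fell in RDES (by 0.44 and 0.35). FOS, the partner of JUN, was detected on no TC71 vehicle array and had a difference of 0.60. MYC stood at -0.44 in TC71 and 0.05 in RDES, a difference of -0.50 ± 0.18 that did not pass (adjusted p = 0.069). The MYC difference passed in 7 of the processing settings and single-array omissions run.

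**Figure D3:**
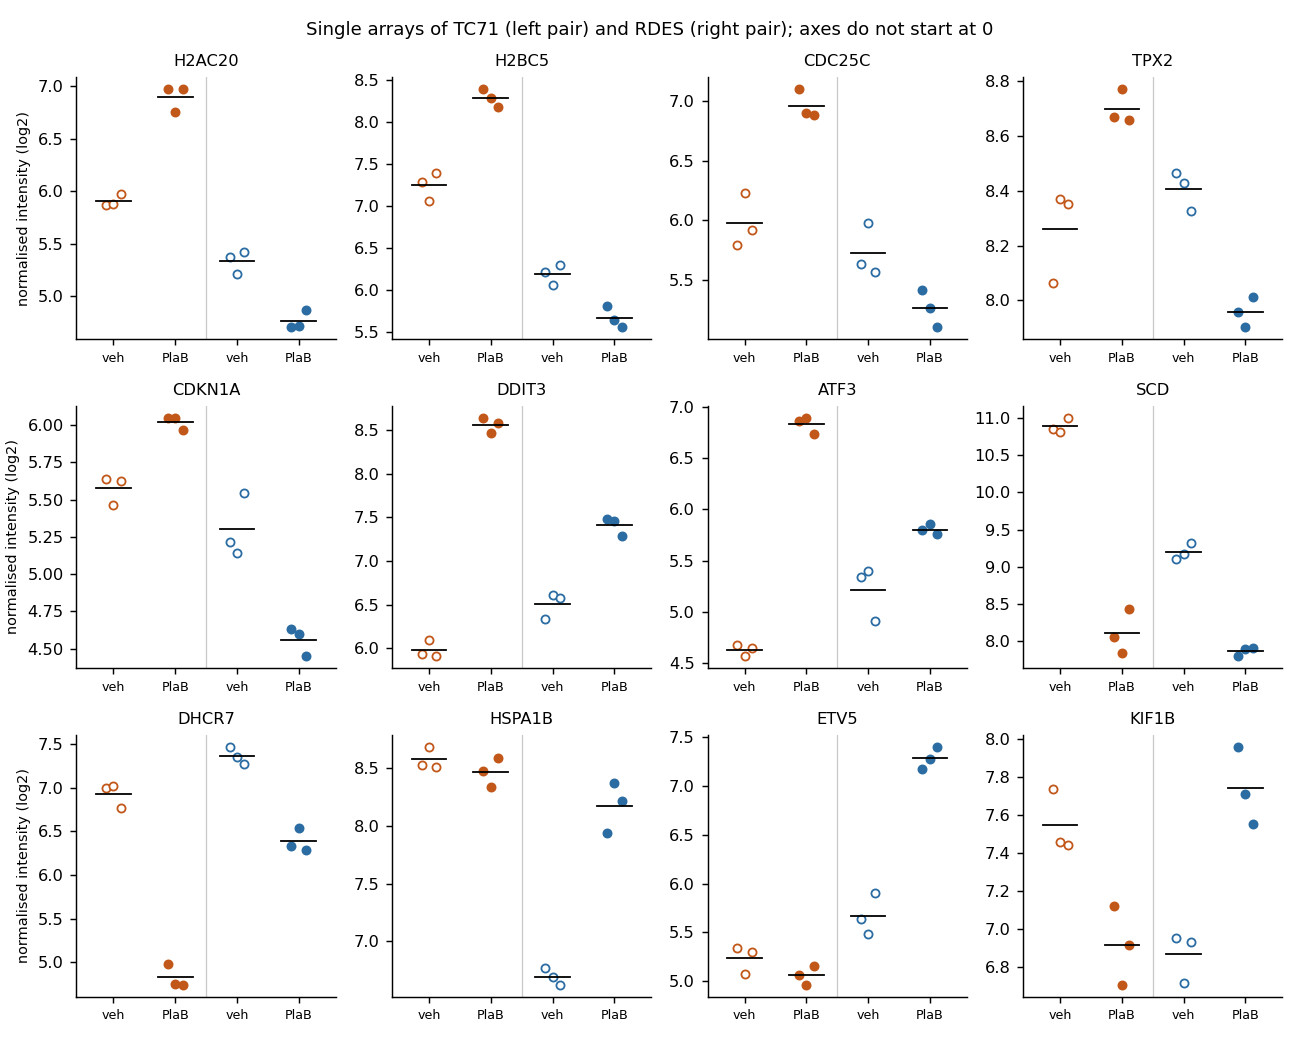
Normalised log2 intensity of 12 genes on each TC71 array (orange) and RDES array (blue), open circles for vehicle and filled circles for PlaB, with a bar at the mean of 3. DDIT3 rose from a mean of 5.98 to 8.56 in TC71 and from 6.51 to 7.41 in RDES, and H2AC20, H2BC5, CDC25C, TPX2 and CDKN1A moved in opposite directions.

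Probes for small nucleolar RNAs, which guide modification of ribosomal and spliceosomal RNA, often rose, and nearly all called differences were upward. Of 116 such probes, one for each symbol, 81 rose in TC71 and 56 in RDES, beside 22.9% and 21.4% of all genes. Only 63 of the 116 were detected on all 12 arrays. The median response of these 116 probes was 0.61 log2 in TC71 and 0.28 in RDES. Their median difference was 0.23 and ranged from 0.095 to 0.32 across scaling and background settings. The difference was called upward for 30 and downward for 1, or 26.7% beside 12.2% of all genes. The upward count was 12 under median centring. SNORD16 rose by 2.90 in TC71 and 1.89 in RDES (difference 1.01 ± 0.18, adjusted p = 2.3e-04), and SNORD25 by 2.98 and 2.32 (difference 0.66). SNORD3A, the U3 RNA of early ribosomal RNA processing, had the largest difference among them, 1.17 ± 0.17 (adjusted p = 1.5e-05), with rises of 1.74 and 0.57. SNORA73A and SNORA73B, close copies of one another, rose in TC71 (0.35 and 0.34) and fell in RDES (by 0.40 and 0.39). SNORA13 was the call in the other direction (-0.46), with detection on no RDES vehicle array. Whether these probes read mature RNA or host transcripts was not tested. Of 14 measured host genes of snoRNAs, 10 rose in TC71 and 11 in RDES, beside 22.9% and 21.4% of all genes. The difference was called for 1 in each direction, or 14.3% beside 12.2% of all genes. These were SNHG11 (0.54) and SNHG4 (-0.73), and the SNHG11 call ended under median centring and without any of 9 single arrays.

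Most genes of sterol and fatty acid synthesis fell in both lines, and every called difference among them was downward. Cholesterol synthesis and uptake genes gave 0 upward and 5 downward calls among 17 measured (29.4%). Fatty acid synthesis and desaturation genes gave 0 upward and 6 downward among 21 (28.6%). Over all genes 12.2% were called, 6.79% of them all downward. In TC71 12 of the 17 and 13 of the 21 fell, beside 25.3% of all genes. In RDES 11 and 13 fell, beside 22.5% of all genes. The median difference was -0.05 for the sterol list and -0.21 for the fatty acid list. The sterol median was unstable, from -0.17 without TC71 PlaB replicate 1 to 0.02 without TC71 PlaB replicate 3, and it moved by over 1.5 times under 7 other single omissions and 3 processing settings. The fatty acid median was -0.10 without RDES PlaB replicate 3 and -0.08 with no background correction. These enzymes are controlled by the SREBP factors, which are kept in the endoplasmic reticulum by INSIG proteins when sterols are plentiful.

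SCD, the desaturase that makes oleate, stood at 10.85, 10.81 and 11.002 log2 with vehicle and at 8.06, 7.85 and 8.43 with PlaB in TC71. In RDES it stood at 9.10, 9.18 and 9.32 with vehicle and at 7.80, 7.89 and 7.90 with PlaB. The lines were apart with vehicle and overlapped with PlaB. SCD fell by 2.78 in TC71, or 6.86-fold, and by 1.33 in RDES, or 2.52-fold (difference -1.44 ± 0.16, adjusted p = 4.5e-07).

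DHCR7, the last enzyme of cholesterol synthesis, fell in TC71 from 7.0, 7.02 and 6.77 to 4.98, 4.75 and 4.74. In RDES it fell from 7.47, 7.36 and 7.28 to 6.33, 6.54 and 6.29 (difference -1.13 ± 0.16), and a second probe gave -0.97. HMGCS1, an early enzyme of the pathway, fell by 1.42 in TC71 and 0.66 in RDES, and INSIG1 by 1.35 and 0.52. MVD, detected on 2 of 3 TC71 PlaB arrays, had a difference of -0.92. NSDHL rose in RDES by 0.63 and was not called in TC71 (-0.06).

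SREBF1, which encodes SREBP1, fell by 1.34 in TC71 and 0.51 in RDES, where 2 of 3 PlaB arrays detected it. FADS2, a desaturase of polyunsaturated fatty acids, fell by 1.79 and 1.04 (difference -0.75). That call ended without TC71 vehicle replicate 1, without TC71 PlaB replicate 3 and without RDES vehicle replicate 1. ACSS2, which makes acetyl-CoA from acetate, fell by 1.12 in TC71 and stood at -0.14 in RDES (difference -0.98 ± 0.21). One of its other probes gave -1.15 and was called, and one gave 0.26 and did not pass. FASN, the fatty acid synthase, fell by 1.62 and 1.22, and FADS1 stood at -2.48 and -2.26, with differences of -0.41 and -0.22 that did not pass. LSS and ACAT2 had differences in the other direction (0.27 and 0.35) that did not pass.

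Heat shock protein genes gave 0 upward and 5 downward calls among 21 measured, or 23.8% beside 12.2% of all genes. The median difference was -0.26, and it was -0.17 when arrays were centred on always-detected probes. In RDES 11 rose and 1 fell, beside 21.4% and 22.5% of all genes. In TC71 4 rose and 6 fell, beside 22.9% and 25.3% of all genes. The count of downward differences was 3 without TC71 vehicle replicate 3, without TC71 PlaB replicate 1 or without RDES PlaB replicate 1. It was also 3 when arrays were centred on always-detected probes. HSPA1B, an inducible HSP70, stood in TC71 at 8.53, 8.68 and 8.51 with vehicle and 8.47, 8.34 and 8.58 with PlaB, which overlapped. In RDES it rose from 6.77, 6.69 and 6.62 to 7.94, 8.37 and 8.21, a 2.79-fold rise (difference -1.59 ± 0.18, adjusted p = 4.8e-07). The lines were apart with vehicle, and their PlaB arrays overlapped at 8.34 to 8.37. HSPA1A is a near-identical copy, so the signal of either RNA at this probe cannot be told apart. HSPH1, a nucleotide exchange factor of HSP70, fell by 0.41 in TC71 and rose by 0.30 in RDES.

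Hypoxia and glycolysis genes also gave calls in that direction alone, 0 upward and 7 downward among 33 measured. That is 21.2% beside 12.2% of all genes, with a median difference of -0.17. The median was -0.07 without TC71 vehicle replicate 1 and -0.10 without TC71 vehicle replicate 3. Without TC71 vehicle replicate 3 or without RDES vehicle replicate 2 the count was 4. BNIP3, a mitophagy receptor that hypoxia induces, fell in TC71 from 7.89, 6.79 and 7.53 to 5.79, 5.93 and 6.11. In RDES it was 7.39, 7.26 and 7.18 with vehicle and 7.24, 7.25 and 7.14 with PlaB (difference -1.40 ± 0.22, adjusted p = 5.8e-05). TC71 vehicle replicate 2 was the lowest vehicle array, and it still lay above every TC71 PlaB array. PFKFB3, which makes the activator of phosphofructokinase, rose in RDES from 7.13, 7.17 and 6.98 to 8.07, 8.23 and 7.95 and was not called in TC71 (0.04). A dimmer PFKFB3 probe gave a difference of -0.49 that did not pass. The aldolase gene ALDOC fell by 0.54 in TC71, PFKM of phosphofructokinase by 1.23 in TC71 and 0.60 in RDES, and HK1, a hexokinase, by 0.74 in TC71.

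Genes tied to the tumour type differed in both directions. Of 41 measured EWS-FLI1-activated genes, 21 fell in TC71 and 24 in RDES, beside 25.3% and 22.5% of all genes. The difference was called upward for 6 and downward for 4, or 24.4% beside 12.2% of all genes. The downward count was 8 with cyclic loess and 7 with an offset of 50. CCND1, cyclin D1, fell in TC71 from 11.07, 11.17 and 11.10 to 10.24, 10.04 and 10.09. In RDES it fell from 11.27, 11.44 and 11.37 to 11.11, 11.11 and 10.87 (difference -0.66 ± 0.15, adjusted p = 0.0030). STEAP2, a metalloreductase, fell by 1.59 in TC71 and 0.93 in RDES, and the cancer-testis lipase LIPI fell by 0.87 in RDES and was detected on 1 of 6 TC71 arrays. NKX2-2, a homeobox factor that the fusion activates, fell by 0.60 in TC71 and stood at -0.23 in RDES, a difference of -0.37 that did not pass (adjusted p = 0.17). EWSR1 had a difference of -0.04 ± 0.17 (adjusted p = 0.93, 95% interval -0.39 to 0.32). EWS-FLI1-repressed genes gave 3 upward calls and 1 downward among 25, or 16% beside 12.2% of all genes. The upward count was 1 without any of TC71 vehicle replicate 1, TC71 PlaB replicate 2, RDES vehicle replicate 1 or RDES PlaB replicate 1.

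Of 25 neural transcription factors 2 were called upward and 5 downward, or 28% beside 12.2% of all genes. The upward count was 0 under median centring and 1 without any of 6 single arrays. The downward count was 3 without TC71 vehicle replicate 2, TC71 PlaB replicate 3, RDES vehicle replicate 1 or RDES PlaB replicate 1. POU3F2, a POU factor of neural precursors, fell in TC71 from 7.09, 7.0 and 7.20 to 5.96, 5.73 and 5.85. In RDES it fell from 6.51, 7.15 and 6.66 to 6.46, 6.07 and 6.28, with arrays that did not overlap (difference -0.75 ± 0.20). The call ended without RDES vehicle replicate 1. POU3F1 fell by 1.41 in TC71 and by 0.35 in RDES, where 1 of 3 PlaB arrays detected it. SOX8 rose by 0.67 in RDES and was not called in TC71 (-0.22; difference -0.89), and ID2, an inhibitor of bHLH factors, rose by 0.59 in TC71 (difference 0.78, not called under median centring).

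Among BCL2-family genes, which set the threshold for mitochondrial cell death, 1 of 17 was called upward and 3 downward, or 23.5% beside 12.2%. Besides BNIP3, the death agonist BID rose by 0.62 in RDES and stood at 0.02 in TC71, a call that ended without TC71 vehicle replicate 3, TC71 PlaB replicate 3 or RDES vehicle replicate 2. BCL2L1, whose isoforms protect from or promote death, rose by 0.65 in RDES and stood at 0.18 in TC71 (difference -0.47, adjusted p = 0.026). Its other probe gave 0.00025, and the call ended under median centring and without any of 5 single arrays. BCL2L11, a death agonist, was the upward call (0.59), with detection on 2 of 6 RDES arrays, and ended without any of 8 single arrays. MCL1, a protective member, had a difference of -0.15 ± 0.23 (adjusted p = 0.74, 95% interval -0.62 to 0.31).

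Extracellular matrix and mesenchymal genes gave 5 upward calls and 1 downward among 35, or 17.1% beside 12.2% of all genes. In TC71 12 fell and in RDES 18, beside 25.3% and 22.5% of all genes. The upward count of differences was 3 without TC71 PlaB replicate 2. FBN2, fibrillin-2, fell in RDES from 9.15, 9.54 and 9.39 to 7.81, 7.94 and 8.08, and no TC71 array detected it, so the TC71 side of that difference is background. PDGFRB, a growth factor receptor of mesenchymal cells, fell by 1.36 in RDES and by 0.62 in TC71, where 1 of 3 PlaB arrays detected it, and its call ended under median centring and without RDES PlaB replicate 1. GAS1, a growth arrest gene, was the downward call (-0.69), with falls of 1.60 in TC71 and 0.91 in RDES, and was not called without any of 7 single arrays. Of oxidative phosphorylation genes 3.64% were called and of cytosolic ribosomal protein genes 6.06%, beside 12.2% of all genes.

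**Figure D4:**
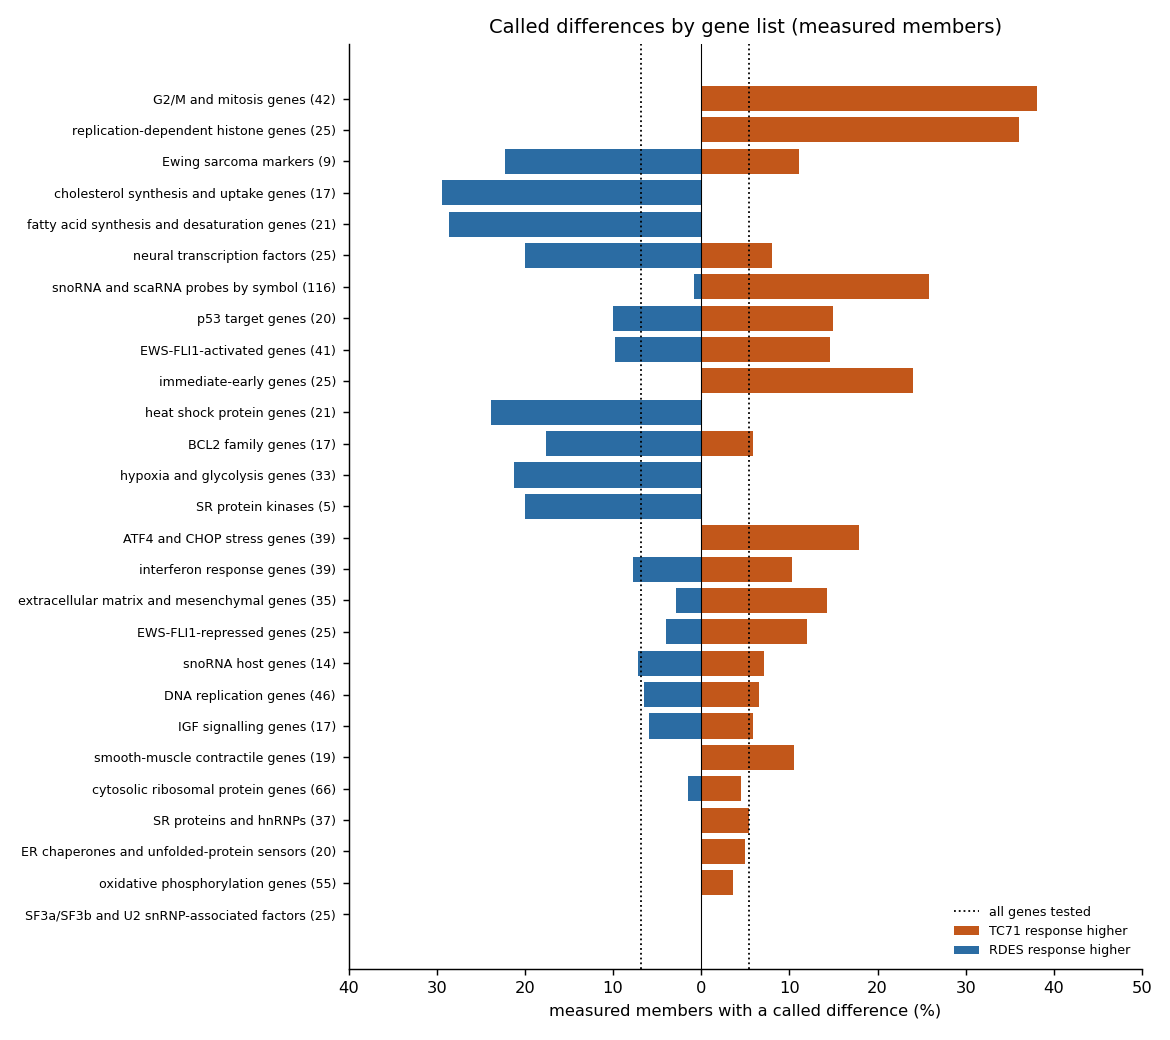
Share of the measured members of each gene list with at least 5 measured members (number in brackets) with a called difference, to the right where the TC71 response was higher and to the left where the RDES response was higher. Dotted lines mark the shares over all genes, 5.41% and 6.79%, and of the lists drawn the G2/M list (38.1%) and the histone list (36%) reach farthest to one side.

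Opposite responses were called for 86 genes, 58 of them down in TC71 and up in RDES and 28 the other way. KIF1B, a kinesin that carries mitochondria and synaptic vesicle precursors, fell in TC71 from 7.74, 7.46 and 7.44 to 7.12, 6.71 and 6.92. In RDES it rose from 6.96, 6.72 and 6.93 to 7.96, 7.71 and 7.55 (difference -1.51 ± 0.18, adjusted p = 9.0e-07). No treatment overlapped with its control, but its 2 other probes gave -0.49 and -0.03 and did not pass. AK4, a mitochondrial adenylate kinase, fell by 0.96 in TC71 and rose by 0.64 in RDES, from vehicle levels of 8.36, 7.98 and 8.32 in TC71 and 4.53, 4.64 and 4.48 in RDES. None of its 3 dimmer probes passed. STOX2 (-0.86 and 0.96), C2CD2 (-0.62 and 0.66) and FUT4, a fucosyltransferase (-0.82 and 0.60), moved the same opposite ways, and a second C2CD2 probe was called as well (-0.77).

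MBD3L5, a gene of the MBD3-like cluster of chromosome 19, fell in TC71 from 11.49, 11.04 and 11.50 to 10.31, 10.29 and 10.21. In RDES it rose from 4.83, 4.59 and 4.87 to 5.54, 5.39 and 5.50 (difference -1.78 ± 0.19, adjusted p = 1.1e-07). The lines were thus 6.58 log2 apart with vehicle, and its 2 other probes gave -1.09 and -1.58. The symbols MBD3L2 (-1.16), MBD3L3 (-1.30) and MBD3L4 (-1.25) were called in the same direction, with partial or no detection on RDES vehicle arrays. The genes are near-identical copies, so the 4 symbols may stand for 1 signal.

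Within this pair of lines, some genes responded in a single line. Genes that changed by at least 2-fold in one line, with an absolute response under 0.25 log2 and no call in the other, numbered 36 for TC71 and 14 for RDES among those detected on all 12 arrays. AMER2, a membrane scaffold that restrains WNT signalling, fell in TC71 from 7.16, 6.90 and 7.14 to 5.02, 5.03 and 4.96. In RDES it was 7.15, 7.03 and 6.98 with vehicle and 6.75, 6.71 and 7.02 with PlaB (difference -1.84 ± 0.18). The vehicle levels overlapped between lines, and of its other probes one gave -0.77 (called) and one 0.02. LMO3, a LIM-only cofactor of neural tumours, fell in TC71 from 8.84, 9.07 and 8.91 to 7.47, 7.43 and 7.36, while RDES stayed between 4.55 and 5.00. One dimmer LMO3 probe gave -0.51 (called) and another 0.18. The long noncoding RNA OLMALINC fell by 1.73 and the RAB GTPase regulator TBC1D16 by 1.55 in TC71, and the zinc finger gene ZNF84 and the secretogranin gene SCG2 rose by 1.63 and 1.48. Several of these genes also responded elsewhere in the series. In SKNMC and TC32, AMER2 stood at -1.10 and -0.87, TBC1D16 at -1.30 and -0.68 and LMO3 at -0.52 and -0.75. OLMALINC stood at -0.15 and -0.76 there, and SCG2 at 0.81 and 0.24.

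On the RDES side, ETV5, an ETS factor that growth factor signalling induces, rose from 5.64, 5.48 and 5.90 to 7.17, 7.28 and 7.40, a 3.06-fold rise. In TC71 it was 5.34, 5.08 and 5.30 with vehicle and 5.06, 4.96 and 5.15 with PlaB (difference -1.79 ± 0.17, adjusted p = 1.7e-08). A dimmer ETV5 probe gave -0.42 and did not pass (adjusted p = 0.084). TUBB3, a neuronal tubulin, fell in RDES from 9.41, 9.21 and 9.26 to 7.89, 8.04 and 7.87 and was not called in TC71 (-0.07), where its vehicle arrays read 6.49, 6.48 and 6.24. The surface protein gene CD24 fell by 1.29 in RDES, though its other probe gave a difference of -0.04, and PPP1R16A rose by 1.34. In SKNMC and TC32, CD24 stood at -2.46 and 0.02, and PPP1R16A at 1.12 and 0.76. PI15, a peptidase inhibitor gene, fell by 2.17 in RDES and 0.30 in TC71. SH3PXD2A, the scaffold of invadopodia, showed the largest negative difference among genes detected on all 12 arrays (-2.02 ± 0.16), with falls of 2.52 in TC71 and 0.50 in RDES.

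Some genes crossed the detection limit in one line. With a called difference, 36 genes were detected on all TC71 vehicle arrays and on no TC71 PlaB array and 15 the other way, and in RDES the numbers were 28 and 14. For these a fold is a lower bound, taken against the lowest signal of probes detected on each array. KCNE5, a potassium channel subunit, was detected on no RDES vehicle array and rose with PlaB to 5.97, 6.03 and 6.02, at least 3.09-fold higher. In TC71, where 1 of 3 vehicle arrays detected it, it rose to 4.99, 5.15 and 5.15. SNORD13 was at least 3.31-fold higher with PlaB in RDES, and rose in TC71 from 5.05, 5.42 and 5.23 to 7.91, 7.71 and 7.87. The difference of SNORD13 was upward (0.82), but was computed from background values in RDES, and its call ended under median centring.

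MAMSTR, a cofactor of myogenic factors, was at least 2.04-fold lower with PlaB in TC71, and HES7, a factor of the segmentation clock, at least 1.71-fold lower. Both were detected on no RDES PlaB array. GPR83, a G protein-coupled receptor gene, was at least 1.82-fold higher with PlaB in TC71 and was detected on 1 of 6 RDES arrays. C5orf46 was at least 2.06-fold higher with PlaB in RDES and was detected on no TC71 array. MEGF6 was at least 1.94-fold lower with PlaB in RDES, also with no detection in TC71. WNT5A fell in RDES from 6.61, 6.74 and 6.33 to 5.41, 5.41 and 5.25, and in TC71, where its vehicle arrays lay near the detection limit, PlaB was at least 1.16-fold lower. The probe for MIR25 was at least 1.84-fold higher with PlaB in TC71, and whether it reads the mature RNA was not tested.

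The lines SKNMC and TC32, treated in the same way, did not side with one line throughout. The H2AC19 response was 0.35 in SKNMC and 0.64 in TC32, beside 2.41 in TC71 and 0.41 in RDES. That of DDIT3 was 1.63 and 0.97, beside 2.58 and 0.90, and that of ATF3 was 2.38 and 1.48, beside 2.20 and 0.59. CDKN1A stood at 0.99 in SKNMC and -0.83 in TC32, beside 0.44 and -0.74. SCD stood at -1.88 and -1.40, beside -2.78 and -1.33, and ETV5 at 0.73 and 0.03, beside -0.18 and 1.61. The order of lines thus differed from gene to gene, and differences that involve SKNMC or TC32 were not tested here.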

How the data were processed

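Total RNA of 24 samples was labelled with a TotalPrep-96 kit and read on Illumina beadchips, per the labels' protocols, and GenomeStudio, lumi and R 3.0.2 are listed in the submitters' processing notes. The deposited table, per the file headers, holds for each sample a probe intensity that was not normalised and a detection p-value. A genome build is not given in the sources used here, nor are chip positions. The deposited table of processed values was not used, since its TC71 and RDES columns could not be matched to these intensities, and 0 sample columns remained unmapped.

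Intensities were background-corrected from the detection p-values and quantile-normalised with neqc (offset 16) in limma 3.58.1 and R 4.3.3, so that values are normalised log2 intensities. Of 47323 probes, 17557 were kept, those detected (p under 0.05) throughout any 1 of the 8 groups of 3 arrays. One model of 8 group means was fitted on all 24 arrays (16 residual degrees of freedom), and the contrast was TC71 PlaB minus vehicle minus RDES PlaB minus vehicle, with Benjamini-Hochberg adjustment over all probes and a threshold of 0.05. Adjusted p-values in the text are those of limma. The number of arrays limits the precision, and array values carry no counting depth. The steps were tested on simulated data.

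A gene was read from its brightest tested probe with 1 symbol, and probes of one gene were never set against another's. Named genes were the 10 largest called differences in each direction among genes detected on all 12 arrays whose treatments did not overlap in at least 1 line, up to 6 opposite and up to 6 single-line responses in each direction or line, up to 4 genes that crossed detection, up to 4 members of each of 29 lists and 12 further genes. List members named besides these were chosen after their values were seen. The members and lists were chosen with earlier results of these data known. Samples with the same number did not deviate together (correlations -0.041 to 0.020), so numbers were not taken to pair them. Scaling, background, filter, weighting, threshold, other probes and the omission of single arrays were varied. Promoters are from the RefSeq table of GRCh38.p14.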

Additional observations from a re-analysis of the deposited data

Results flagged for a closer look

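Responses to PlaB differed between TC71 and RDES by the test of the difference itself at 1855 probes. Of the genes named for opposite responses, those that rose in TC71 and fell in RDES had differences of 1.56 log2 (H2AC20), 1.56 (H2BC5), 1.44 (CDC25C), 1.18 (CDKN1A), 1.04 (MASTL) and 0.89 (TPX2). Those that fell in TC71 and rose in RDES had differences of -1.82 (STOX2), -1.78 (MBD3L5), -1.60 (AK4), -1.51 (KIF1B), -1.43 (FUT4) and -1.28 (C2CD2). Other probes of AK4 and KIF1B did not pass.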

How the results depend on the processing

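The 1855 calls became 1337 under median centring and 2295 with array weights, and 1541 with no filter on dim probes. Of the 1855, 1212 were also called under median centring and 1553 without background correction. Every call shared with the reported ones kept its sign under each setting run, which says nothing of the calls that were lost. Median centring gave 385 upward and 952 downward calls. At an adjusted p under 0.01 there were 939 calls, 377 upward and 562 downward. Leaving out 1 of the 12 arrays gave 1499 to 1642 calls, 661 to 742 upward and 830 to 925 downward, with 6876 to 7670 in TC71 and 6140 to 6939 in RDES beside 7666 and 6968. With the replicate number as a block there were 1770 calls, and since the numbers do not pair the samples that value describes a setting only. The difference in detected probes turned to 179.67 at detection p under 0.01 (exact permutation p = 0.85). EWSR1, not called, turned to 0.00033 when arrays were centred on always-detected probes, to 0.055 without TC71 vehicle replicate 2, to 0.028 without TC71 PlaB replicate 1, to 0.076 without RDES vehicle replicate 1 and to 0.42 at another probe, and MCL1 to 0.031 without RDES vehicle replicate 2. Without single arrays EWSR1 ranged from -0.13 to 0.076 and MCL1 from -0.43 to 0.031. Other probes gave 0.26 for ACSS2, 0.016 for AMER2, 0.00025 for BCL2L1, -0.036 for CD24, 0.0069 for FEN1, 0.18 for LMO3 and -0.025 for OAS1. The causes were not tested. The alternative from the deposited processed values was not run. Of 1476 values of named genes under processing settings, 1359 kept direction and side of the threshold, and 1318 of 1476 did so without single arrays, but 22 of 55 at other probes. Genes near background have only a bound.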

Other observations

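Interferon response genes gave 4 upward and 3 downward calls among 39 measured, or 17.9% beside 12.2% of all genes. Leaving out TC71 PlaB replicate 2 left 1 upward and 0 downward, and leaving out TC71 vehicle replicate 1 left 0 downward. Further single omissions (TC71 vehicle replicates 2 and 3, TC71 PlaB replicate 3, RDES vehicle replicates 1 and 3, RDES PlaB replicate 2) also moved one of the counts by over 1.5 times. TC71 and RDES differed at 8209 probes with vehicle and at 8188 probes with PlaB (limma).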
